A study of Homo sapiens with 8 samples.

Results

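The genes described here encode the subunits, assembly factors and activators of the proteasome. They were taken as the protein-coding genes whose RefSeq symbol is PSM, a letter from A to G and a number, leaving out PSMB8 and PSMB9, whose counts in the MHC region are uncertain. Of 18555 genes in the count table, 44 met this rule, and all 44 passed the filter on low counts. They comprised 7 genes of the alpha rings and 8 of the beta rings of the core particle, 6 ATPases and 11 other subunits of the regulatory particle, 3 chaperones that assemble the base of that particle, 4 activators with 1 inhibitor, and 4 chaperones that assemble the core. PSMA8 and PSMB11, which the rule would also take, were not analysed here.

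The proteasome is the barrel-shaped protease that degrades proteins tagged with ubiquitin. Its core holds the protein-cutting sites between rings of alpha and beta subunits, while the regulatory particle binds ubiquitin, removes it and threads the protein into the core with its ATPases. Misfolded proteins of the endoplasmic reticulum (ER) are sent back to the cytosol and end in the proteasome, so its capacity matters under ER stress. When proteasome activity is short, the transcription factor NFE2L1 is known to raise the subunit genes together.

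RNA-seq compared 3 libraries of cells given a non-targeting control siRNA (siNC) with 3 libraries of cells given an siRNA against XBP1 (siXBP1). XBP1 encodes a transcription factor of the unfolded protein response that is active once its mRNA is spliced. All 6 libraries come from cells labelled HepG2, a human liver tumour line, and all were treated with 30 nM thapsigargin, an inhibitor of the ER calcium pump, for 3 hours, 2 days after transfection. Both groups are therefore under ER stress and differ in the siRNA, and a single siRNA label stands for the knockdown. Nothing in the labels tells whether the replicates were grown separately, and p-values here rest on a spread among libraries that may be technical.

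Library totals lay between 38209972 and 38890070 counts. Levels are CPM, counts scaled to a common library size after TMM scaling, and since no transcript lengths were used they are read across libraries, not between genes. XBP1 stood at 551, 502 and 499.8 CPM in siNC and at 287, 304 and 275 CPM in siXBP1 (log2 fold change -0.84, SE 0.08, edgeR adjusted p = 0.0331), with no overlap between groups. Upper-quartile scaling ended this call (adjusted p = 0.0546), and so did leaving out the second (0.175) or the third (0.213) library of siNC, or the first (0.475) or the second (0.284) of siXBP1. Marker genes were read in CPM by library size alone, without TMM scaling. Hepatocyte markers, a check of the labelled tissue, were nearly absent: the highest library had 0.523 CPM for HNF4A, 0.416 for SERPINA1, 0.258 for APOA2 and 0.155 for AFP. Of 6 markers of other epithelial lines, the keratins KRT7 and KRT17 stood at 1473 ± 189 and 3364 ± 409 CPM and KRT14 at 8.78 ± 1.98 CPM (SD, n = 6), while the highest library had 0.103 CPM for KRT5, 0.103 for EPCAM and 0.624 for CDH1.

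Because NFE2L1 and XBP1 act through sites in promoters, the 300 bases around each gene start (250 before, 50 after) were searched on both strands in the RefSeq promoter table (GRCh38.p14), which matched 38 of the 44 genes. The entries not matched were PSMA7, PSMB1, PSMB6, PSMB7, PSMD4 and PSMG3. TGACNNNGC, the core of the antioxidant response element that NFE2L1 and NFE2L2 bind with small MAF proteins, occurred in 12 promoters (31.6%), against 14.9% of 10701 promoters of tested coding genes. It was found in 3 of 5 activator and inhibitor promoters, 3 of 10 of the other regulatory subunits, 2 of 3 for each kind of chaperone, 1 of 6 ATPases, 1 of 5 beta subunits and 0 of 6 alpha subunits. In 10 of the 12 genes a match lay wholly before the start. The 8 stretches shown here hold a match on the coding strand before the start, so that spacing and flanks can be compared, and capitals mark the match. PSMD5 has such a match too, and the one ATPase match, in PSMC4, lies after the start on the other strand.
PSMB3: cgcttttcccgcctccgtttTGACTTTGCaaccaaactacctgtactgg
PSMD3: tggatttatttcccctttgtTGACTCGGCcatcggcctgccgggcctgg
PSMD12: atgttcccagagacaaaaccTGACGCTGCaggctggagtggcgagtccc
PSMD9: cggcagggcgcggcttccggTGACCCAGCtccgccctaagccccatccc
PSME1: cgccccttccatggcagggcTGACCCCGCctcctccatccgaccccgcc
PSME2: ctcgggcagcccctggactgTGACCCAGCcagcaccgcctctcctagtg
PSMG1: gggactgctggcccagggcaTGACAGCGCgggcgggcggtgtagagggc
PSMG2: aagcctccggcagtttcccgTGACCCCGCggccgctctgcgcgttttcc

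These stretches lie at chr17:38752617-38752665 (PSMB3, plus strand), chr17:39980750-39980798 (PSMD3, plus), chr17:67366714-67366762 (PSMD12, minus), chr12:121888668-121888716 (PSMD9, plus), chr14:24136088-24136136 (PSME1, plus), chr14:24146757-24146805 (PSME2, minus), chr21:39183606-39183654 (PSMG1, minus) and chr18:12658679-12658727 (PSMG2, plus). The match begins nearest to the start in PSMD3 (37 bases before it) and PSMG2 (39), and farthest in PSMG1 (183) and PSME2 (175). PSME1 and PSMG2 share the same 9 letters, as do PSMD9 and PSME2.

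TGACGTG, the core of the element of the unfolded protein response that XBP1 and ATF6 bind, occurred in 0 of the 38 promoters and in 2.49% of the 10701. CCACG, the XBP1 and ATF6 side of the ER stress element, occurred in 15 (39.5%, against 49.3%), and on the opposite strand its letters overlap those of TGACGTG. The ETS core CCGGAA was in 18 (47.4%, against 28.8%), the NF-Y box CCAAT in 17 (44.7%, against 36.5%) and the YY1 core GATGGCG in 3 (7.89%, against 7.46%). A match is a description of the letters, and its absence says nothing of binding elsewhere. The 12 genes with TGACNNNGC had a median log2 fold change in siXBP1 of -0.01 with 6 estimates below 0, and the 26 without it had a median of 0.00 with 13 below 0.

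In siXBP1 against siNC, none of the 44 genes passed the test. edgeR's quasi-likelihood test gave an adjusted p of 1.00 for each, DESeq2 and limma-voom called 0 as well, and 0 members had an unadjusted p under 0.05 in any of the 3 tools; over all 14337 tested genes edgeR called 0.00697% after adjustment and 3.61% at an unadjusted p under 0.05, and DESeq2 0.105% and 4.01%. Of the 44 estimates, 24 were below 0 and 20 above, with a median log2 fold change of -0.02, against 0.01 over all tested genes, 47.2% of which had an estimate below 0. The lowest estimate was -0.23, for PSMB10, and the highest 0.09, for PSMA6. These are bulk samples, in which fewer cells of a type and less RNA per cell cannot be told apart.

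The intervals bound the difference between these groups of libraries, as far as a spread that may be technical allows. They hold for a partial knockdown, with XBP1 mRNA at 0.558-fold in siXBP1. For 42 of the 44 genes the 95% interval of the log2 fold change lay within 0.5 of 0, that is, within 1.41-fold either way, as it did for 57.1% of all tested genes and 79.4% of the 9260 tested genes in the members' range of mean CPM. The exceptions were PSMB10, down to 0.657-fold, and PSMG3, down to 0.681-fold. No interval reached above 1.25-fold, the upper bound for PSMA7. The 9260 genes had a median of 44.2 CPM and the members one of 116 CPM, so the sets were not matched in level.

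**Figure D1:**
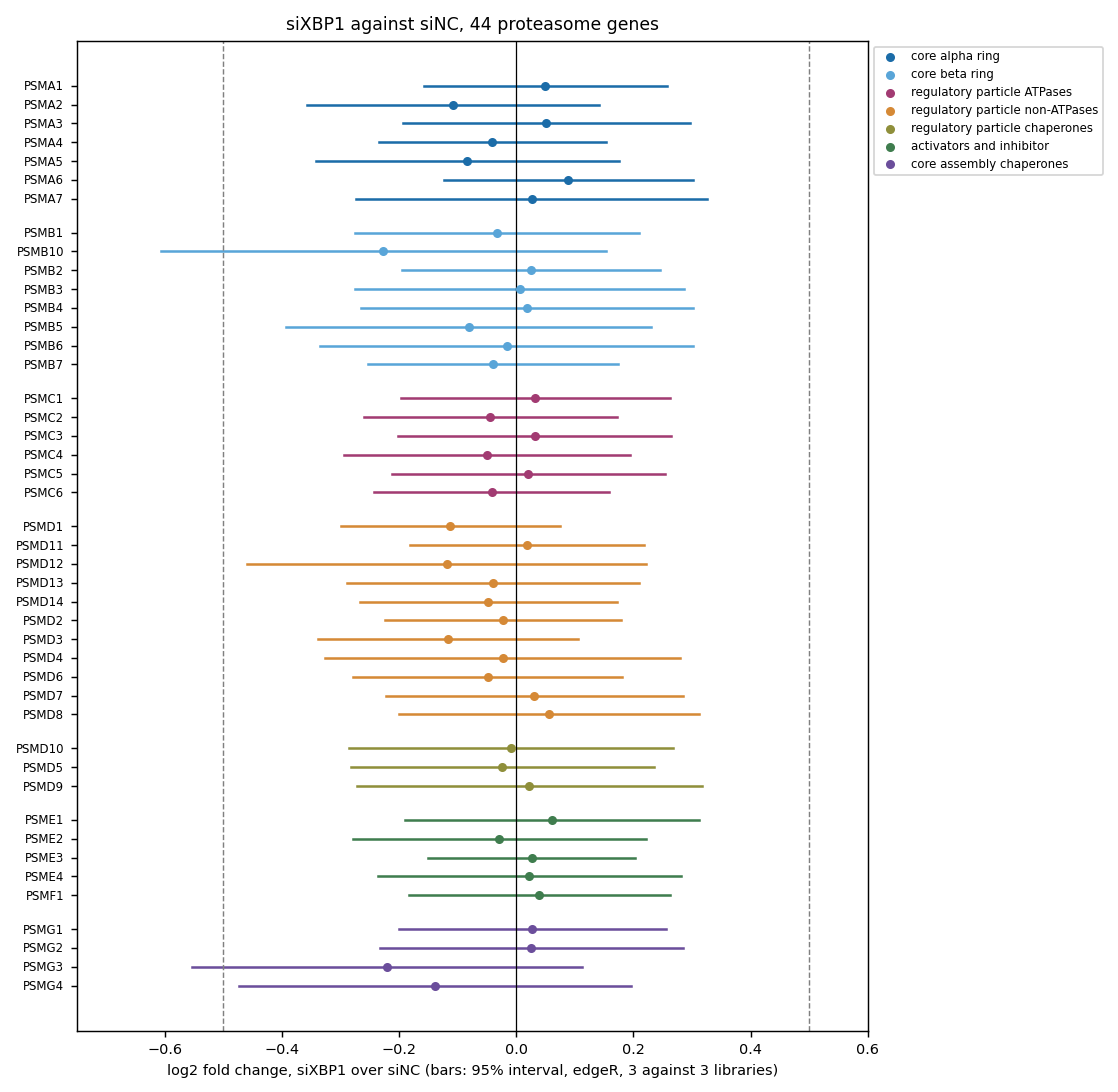
Log2 fold change of siXBP1 over siNC for each of the 44 proteasome genes, coloured by class, with the 95% interval as a bar and dashed lines at 0.5 on either side of 0. Each bar crosses 0, and only those of PSMB10 and PSMG3 pass the lower dashed line.

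The alpha rings form the gated ends of the core. PSMA7, the alpha gene with the most counts, had 264, 202 and 217 CPM in siNC and 227, 268 and 201 in siXBP1 (log2 fold change 0.03, SE 0.13). Each group thus had 1 library above 260 CPM. PSMA3, with the fewest, had 96.4, 93.2 and 99.0 CPM in siNC and 86.1, 104 and 108 in siXBP1 (0.05, SE 0.11), and the siNC values lay inside the siXBP1 range. The class ran from -0.11 for PSMA2, with 130 ± 14.2 and 121 ± 10.1 CPM (SD, n = 3 each), to 0.09 for PSMA6, with 193 ± 11.9 and 205 ± 15.6 CPM. PSMA6 shares its locus (chr14:35278558-35317493) with the readthrough gene PRORP-PSMA6, so its reads are uncertain. Of the 7 alpha genes 3 had estimates below 0, with a median of 0.03.

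Of the 8 beta genes, 5 had estimates below 0, with a median of -0.02. PSMB5, PSMB6 and PSMB7 carry the protein-cutting sites of the standard core. PSMB5 (chr14:23025851-23035220), the subunit that proteasome inhibitors chiefly block, had 162, 124 and 130 CPM in siNC and 129, 152 and 112 in siXBP1 (-0.08, SE 0.14). PSMB6 had 122, 96.6 and 98.2 CPM in siNC and 107, 120 and 86.4 in siXBP1 (-0.02, SE 0.14). In both genes siNC replicate 1 was the highest library and siXBP1 replicate 3 the lowest, with the groups overlapping. PSMB4, which has no such site and the most counts of the class, had 159 ± 10.5 and 161 ± 27.7 CPM (SD, n = 3 each; 0.02, SE 0.13), and PSMB2 had the highest estimate of the class (0.02, SE 0.10).

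PSMB10 (chr16:67934506-67936850) encodes the subunit that takes the place of PSMB7 in the immunoproteasome, the form that interferon induces. It had 11.8, 9.52 and 8.78 CPM in siNC and 9.79, 8.52 and 7.37 in siXBP1 (-0.23, SE 0.17, 95% interval -0.61 to 0.15). Its siXBP1 libraries were on the low side but overlapped with siNC. PSMB7 had 108, 97.1 and 99.9 CPM in siNC and 102, 102 and 93.0 in siXBP1 (-0.04, SE 0.09). Taken within each library, PSMB10 counts were 9.82% ± 1.04 of PSMB7 counts in siNC and 8.63% ± 0.873 in siXBP1 (SD, n = 3 each), not corrected for length. An exact two-sided permutation test of this difference gave p = 0.2, where 3 against 3 libraries can give no less than 0.1. The same test on the other ratio compared, PSME1 over PSME2 below, gave 0.2 too, and 0.2 after adjustment for both.

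**Figure D2:**
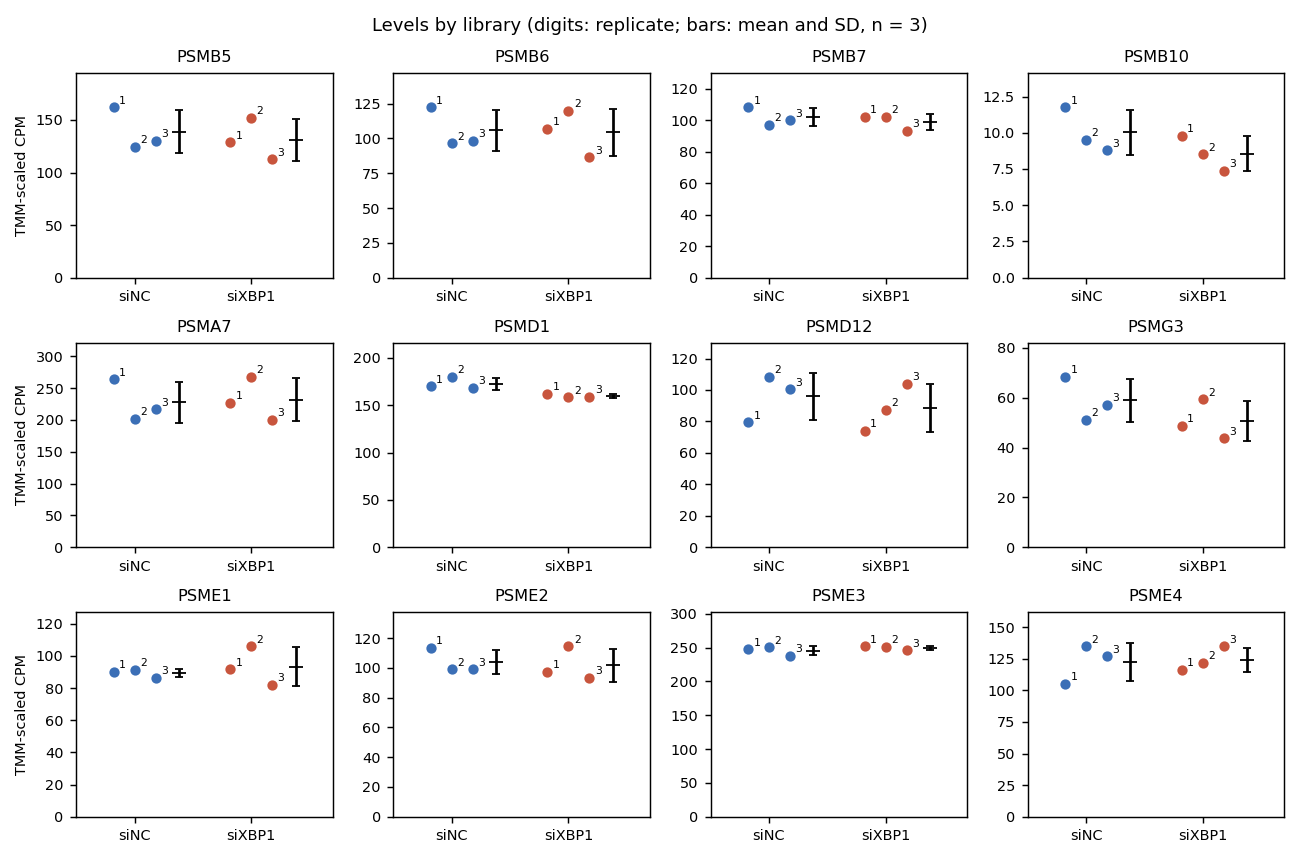
TMM-scaled CPM of 12 proteasome genes in each library, siNC in blue and siXBP1 in red, with the replicate number beside each point and the mean and SD (n = 3) in black; every axis starts at 0. For 11 of the genes the groups overlap, and for PSMD1 they do not. siNC replicate 1 is the highest point for PSMB5 and PSMG3 and the lowest for PSME4.

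The 6 ATPases form the ring that unfolds substrates. Their estimates lay closest together of the classes with more than 3 genes, from -0.05 for PSMC4 to 0.03 for PSMC1, with 3 below 0 and a median of -0.01. PSMC3, with the most counts, had 188, 162 and 170 CPM in siNC and 176, 195 and 161 in siXBP1 (0.03, SE 0.10). PSMC6, with the fewest, had 83.9, 80.9 and 82.5 CPM in siNC and 78.4, 81.0 and 80.8 in siXBP1 (-0.04, SE 0.09). Its 6 libraries had a coefficient of variation of 2.26%, the second lowest of the 44 genes, and siNC replicate 2 fell between siXBP1 libraries. PSMC1 and PSMC4 had 162 ± 5.95 and 166 ± 18.8 CPM, and 118 ± 7.78 and 114 ± 13.0 CPM, in siNC and siXBP1 (SD, n = 3 each).

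Of the 11 other subunits of the regulatory particle, 8 had estimates below 0, with a median of -0.04. PSMD1, a scaffold of the base to which the ubiquitin receptor ADRM1 docks, was the one gene of the 44 whose groups did not overlap: 170, 180 and 168 CPM in siNC against 162, 158 and 159 in siXBP1 (-0.11, SE 0.08, unadjusted p = 0.208). Groups did not overlap for 8.83% of all tested genes, with siXBP1 lower for 3.81% and higher for 5.02%; 1 of 44 members is below these shares. The gene spans chr2:231056867-231172827 and overlaps HTR2B, which had at most 8 counts in any library. PSMD2, the other large scaffold, had 339, 322 and 317 CPM in siNC and 318, 349 and 296 in siXBP1 (-0.02, SE 0.09), and its siNC values lay inside the siXBP1 range.

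PSMD12 (chr17:67337916-67366577), a subunit of the lid, had the lowest estimate of this class. It had 79.5, 108 and 100.5 CPM in siNC and 74.0, 87.6 and 104 in siXBP1 (-0.12, SE 0.15). The libraries spread by 1.46-fold from lowest to highest within overlapping groups. PSMD8, also of the lid, had the highest estimate (0.06, SE 0.11), with 120 ± 13.5 and 125 ± 11.4 CPM, and PSMD7, with the fewest counts of the class, 66.0 ± 1.68 and 67.4 ± 8.30 CPM (SD, n = 3 each). PSMD5, PSMD9 and PSMD10 chaperone the assembly of the base and are not part of the finished particle. Their estimates were -0.02 (SE 0.12), 0.02 (SE 0.13) and -0.01 (SE 0.12), and each had siNC and siXBP1 libraries that overlapped.

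Activators open the core without ubiquitin. PSME1 (chr14:24136194-24138962) and PSME2 (chr14:24143365-24146610) are neighbours on opposite strands and their proteins form 1 ring, which interferon induces. PSME1 had 90.2, 91.4 and 86.5 CPM in siNC and 91.7, 106 and 82.1 in siXBP1 (0.06, SE 0.11). PSME2 had 113, 99.0 and 99.0 CPM in siNC and 97.5, 114 and 93.2 in siXBP1 (-0.03, SE 0.11). For both the siXBP1 libraries spanned the siNC values. PSME1 counts were 86.4% ± 6.42 of PSME2 counts in siNC and 91.6% ± 3.09 in siXBP1 (SD, n = 3 each).

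PSME3, the activator of the nucleus, varied least of the 44 genes, with 247, 250.5 and 238 CPM in siNC and 252, 251 and 246 in siXBP1 (0.03, SE 0.08) and a coefficient of variation of 2.15%. PSME4, a large activator that caps the core alone, had 105, 135 and 127 CPM in siNC and 116, 122 and 135 in siXBP1 (0.02, SE 0.12). PSMF1, which inhibits the core in the test tube, had 95.1 ± 2.86 and 97.8 ± 8.31 CPM (SD, n = 3 each; 0.04, SE 0.10). In this class 1 of 5 estimates was below 0 and the median was 0.03.

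Among the chaperones of core assembly, PSMG1 and PSMG2 work as a pair on the alpha ring and had estimates of 0.03 (SE 0.10) and 0.03 (SE 0.12). PSMG3 and PSMG4, the second pair, had estimates of -0.22 (SE 0.15) and -0.14 (SE 0.15). PSMG3 (chr7:1567332-1570032) had 68.4, 51.1 and 57.2 CPM in siNC and 48.6, 59.3 and 43.7 in siXBP1 (unadjusted p = 0.171, the smallest of the 44). PSMG4 had 22.2, 17.3 and 16.8 CPM in siNC and 16.5, 19.1 and 15.5 in siXBP1. In both genes siNC replicate 1 was the highest library, and the groups overlapped.

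Summed over the 44 genes, siNC libraries held 5803, 5399 and 5335 CPM and siXBP1 libraries 5279, 5956 and 5156. siNC replicate 1 and siXBP1 replicate 2 stood above the other 4. In unscaled counts the members took 0.581% and 0.586% of these libraries and 0.518% to 0.540% of the others. For 28 of 44 members (63.6%) these were the 2 highest libraries, as for 15.8% of the 9260 tested genes in the same range of CPM. The count was 7 of 8 beta genes, 5 of 7 alpha genes, 5 of 6 ATPases, 5 of 11 other regulatory subunits, 5 of 7 chaperones of either kind, and 1 of 5 activators and inhibitor. This pair of libraries was chosen after the values were seen, and the counts are descriptions.

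At the other end, siXBP1 replicate 3 was the lowest library for 24 members, among them each of the 8 beta genes and 5 of the 6 ATPases, and siXBP1 replicate 1 for 12. Over the 9733 tested genes with at least the CPM of the lowest member, siXBP1 replicate 3 was lowest for 31.1% and highest for 29.5%. In the same genes siXBP1 replicate 1 was lowest for 9.81%, against 27.3% of the members. The ratio of highest to lowest library ran from 1.06 for PSME3 to 1.59 for PSMB10, with a median of 1.24. It was 1.32 for tested genes in the same range of CPM, whose median CPM was lower than that of the members.

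**Figure D3:**
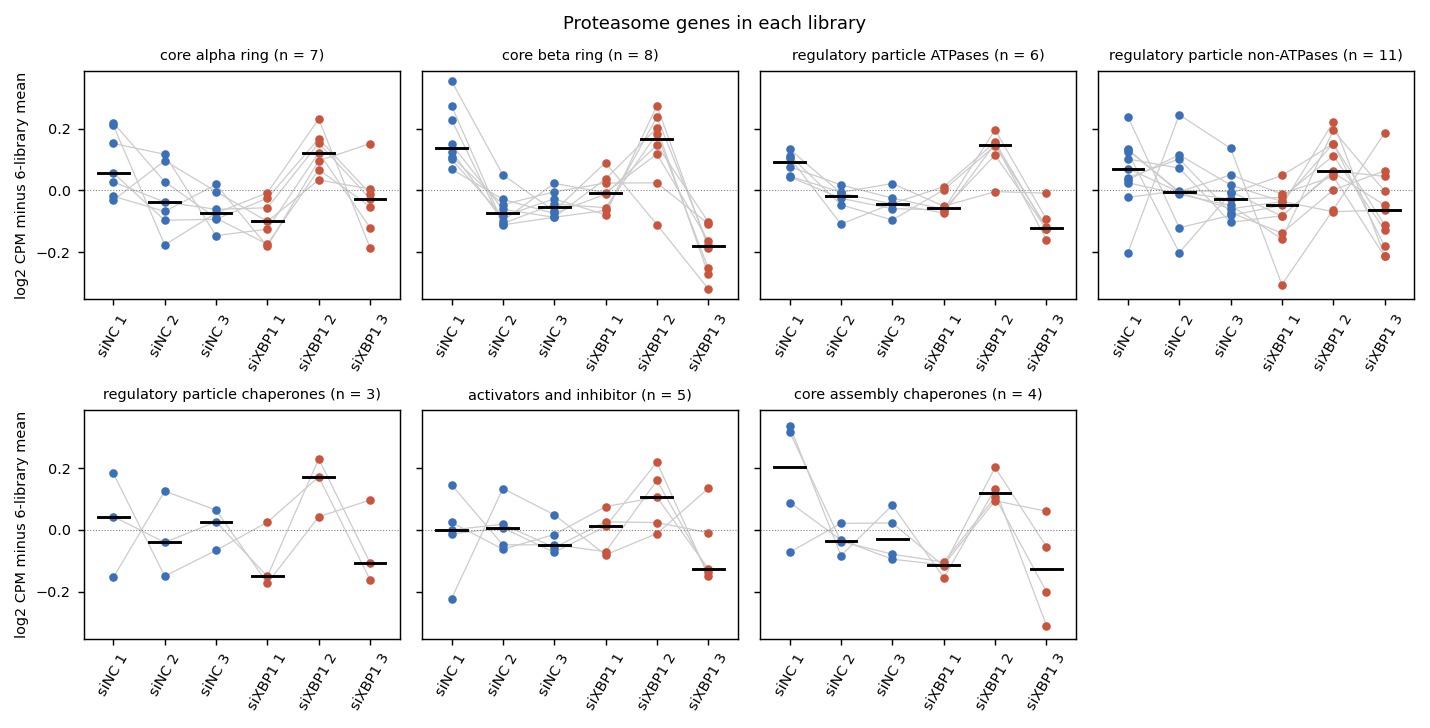
Log2 CPM of each member minus its mean over the 6 libraries, by class; grey lines join 1 gene, points are genes (siNC blue, siXBP1 red) and black bars are class medians. siNC replicate 1 and siXBP1 replicate 2 lie above 0 for 35 and 39 of the 44 genes, and siXBP1 replicate 3 for 8.

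Not every member followed. The first principal component of 11528 well-counted genes (100 counts or more on average) held 59.1% of the variance and placed siNC replicate 1 (0.644) and siXBP1 replicate 3 (-0.647) at its ends, with siXBP1 replicate 2 at 0.133. Between the end libraries of the first component 36 members were higher in siNC replicate 1 and 8 were lower. Their median log2 difference was 0.20, against 0.00 in the 9260 genes. PSMB10 (0.67), PSMG3 (0.65) and PSMB5 (0.53) differed most in that direction. PSMD12 (-0.39), PSME4 (-0.36), PSMD5 (-0.25) and PSMA3 (-0.17) differed most in the other. PSMD12, PSME4, PSMD5 and PSMD14 had siNC replicate 2 and siXBP1 replicate 3 as their 2 highest libraries. What made the libraries differ was not tested.

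Direction in siXBP1 depended on which libraries were used. Without siXBP1 replicate 2, 40 of 44 estimates were below 0 (median -0.08), against 49.0% of all tested genes in that fit (median 0.00). Without both end libraries 12 of 44 were below 0 and 32 above (median 0.06), against 48.0% of all tested genes below 0 (median 0.01). In the second fit edgeR called 702 of 14416 genes (4.87%) with 2 libraries a group, and 1 member, PSMD12, passed as lower (-0.37, SE 0.10, adjusted p = 0.0162). In that fit 5 of 44 members had an unadjusted p under 0.05, against 18.3% of all tested genes. PSMB10 and PSMG3, the lowest estimates with 6 libraries, had 0.0005 (SE 0.17) and -0.004 (SE 0.11) there. With the score on the component as a covariate, which is computed from these same libraries, 1.2% of genes passed and 0 members. Of the members 19 had estimates below 0, as had 48.8% of all tested genes, and PSMD12 alone had an unadjusted p under 0.05, against 11.6%: -0.20 (adjusted p = 0.157).

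**Figure D4:**
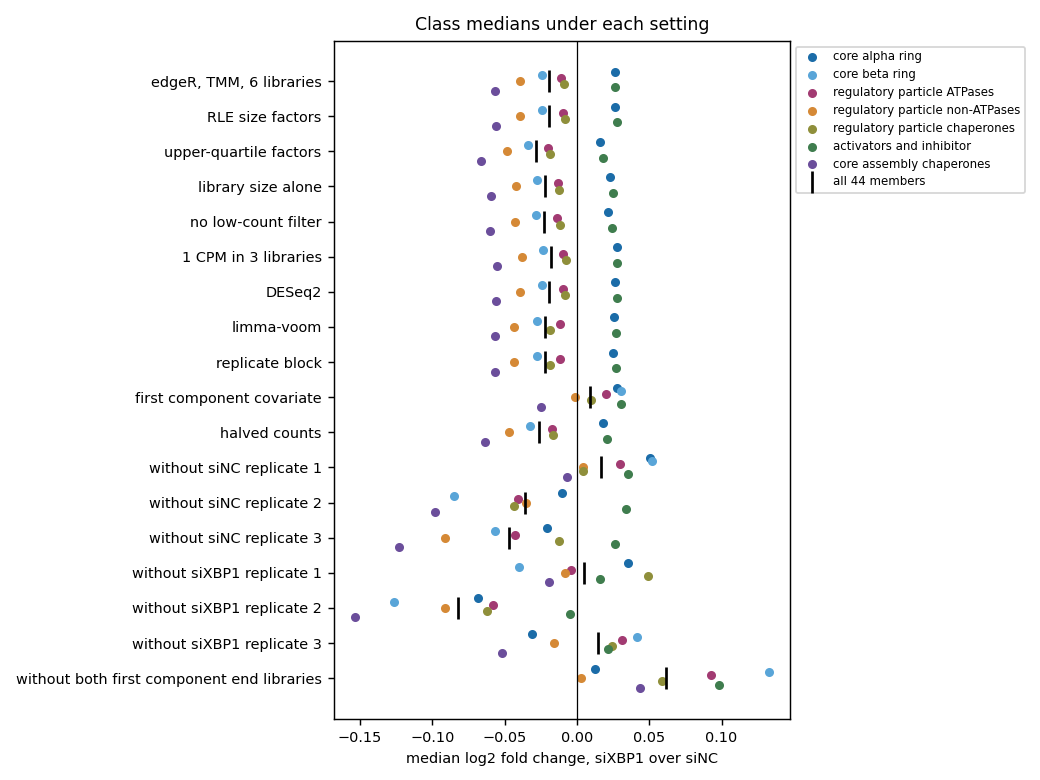
Median log2 fold change of siXBP1 over siNC for each class (coloured points) and for the 44 genes (black marks) under each setting, from the fit with 6 libraries to fits with libraries left out. Scaling and filter move the medians little, whereas leaving out siXBP1 replicate 2 puts the 44-gene median at -0.08 and leaving out both end libraries at 0.06.

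The partner genes were read from lists chosen for their roles. Of 12 other subunits and bound factors 8 had estimates below 0 (median -0.04), of 9 genes for NFE2L1, its processing and its partners 3 (0.07), of 12 for p97 and ubiquitin shuttles 7 (-0.02), of 6 ubiquitin genes and activating enzymes 3 (-0.01), and of 6 ubiquitin ligases 2 (0.01). Of all tested genes 47.2% had an estimate below 0. None of the 45 genes passed the test of edgeR, DESeq2 or limma-voom, where edgeR called 0.00697% of all tested genes and DESeq2 0.105%. In edgeR 0 of the 45 had an unadjusted p under 0.05, against 3.61% of all tested genes. NFE2L1 mRNA had 484, 479.5 and 463.5 CPM in siNC and 536, 469 and 478 in siXBP1 (0.06, SE 0.08), with overlap. POMP, the chaperone that matures the core, had 85.4, 79.1 and 80.2 CPM in siNC and 76.2, 81.7 and 81.0 in siXBP1 (-0.03, SE 0.09). ADRM1 had 209, 148 and 174 CPM in siNC and 175, 176 and 139 in siXBP1 (-0.12, SE 0.14).

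The lowest estimates among the partners were those of MAFK, a small MAF protein that pairs with NFE2L1 and NFE2L2, and TXNL1, a thioredoxin-like protein bound to the regulatory particle. MAFK had 85.7, 62.5 and 69.0 CPM in siNC and 67.3, 54.6 and 50.8 in siXBP1 (-0.33, SE 0.15, unadjusted p = 0.0521), and siXBP1 replicate 1 lay inside the siNC range. TXNL1 had 56.8, 68.4 and 63.6 CPM in siNC and 53.7, 51.4 and 56.4 in siXBP1 (-0.22, SE 0.11, unadjusted p = 0.066). It was the only one of the 45 without overlap, where 8.83% of all tested genes had none (3.81% with siXBP1 lower). BACH1, a repressor at the same element, had the highest estimate (0.22, SE 0.18). UFD1, a p97 cofactor, had 0.14 (SE 0.11), RAD23B, a shuttle, -0.09 (SE 0.09), UBA6, which activates ubiquitin, -0.09 (SE 0.25), UBB, a ubiquitin gene, 0.03 (SE 0.11), the ligase genes RNF181 -0.04 (SE 0.16) and KLHL42 0.10 (SE 0.15), and ZFAND5, which stimulates the proteasome, 0.07 (SE 0.10).

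The members lie on 17 chromosomes, with 7 on chromosome 14 (PSMA3, PSMA6, PSMB5, PSMC1, PSMC6, PSME1 and PSME2), or 15.9%, where 3.18% of tested genes lie. Chromosome 17 also holds 7, but the share of tested genes on it was not computed. Of the 44 spans, 10 overlap another gene of the count table, and the strand setting of the counting is not given in the sources used here. RefSeq lists 52 pseudogenes for 21 members, 13 of them for PSMC1 and 6 for PSME2, which were not analysed here, so reads of those members may be shared with copies.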

How the data were processed

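Raw read counts per NCBI Gene ID were deposited by the authors for 6 RNA-seq libraries. STAR 2.5.2a, featureCounts 1.5.0 (Subread) and hg38 appear in the submitters' processing notes, and per the labels' protocols a strand-specific kit was used. The annotation and how read pairs were counted are not stated in what was used here. Among counts of 1 to 40, 75.8% to 80.5% were even. RefSeq (GRCh38.p14) named 18526 of the 18555 IDs. No replicate pair agreed within sampling noise. The 2 ChIP-seq samples were not analysed here.

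edgeR 4.0.16 (R 4.3.3) was used with filterByExpr, TMM scaling and the two-sided quasi-likelihood test on group alone (4 residual degrees of freedom). The procedure was tested on simulated data in which genes varied independently, so not under a component shared among libraries. P-values were adjusted by Benjamini-Hochberg over 14337 genes with a threshold of 0.05. SEs are the fold change divided by the square root of F, and intervals use the moderated degrees of freedom. Alternatives were DESeq2 1.42.0, limma-voom (limma 3.58.1), other scalings and filters, halved counts, a replicate block, the first component as a covariate and libraries left out. At 38209972 to 38890070 counts per library, 3 counts are 0.0771 to 0.0785 CPM, which covers counting error only. Named genes are the extremes of each class by level and fold change, the extremes of each partner list by fold change alone, members without overlap, and a few fixed by name. Further genes were named after their values were seen, or for a promoter match. The members, lists and alternatives were chosen with earlier results of these data known. One gene of the hepatocyte marker list is not reported here.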

Additional observations from a re-analysis of the deposited data

How the results depend on the processing

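The count of 0 called members held under each alternative, with 1 exception, the fit without both end libraries of the first component (1 member, 702 genes). The number of genes called was 1 with 6 libraries, 0 with upper-quartile scaling or an adjusted p under 0.01, 15 with DESeq2, 172 with the component as a covariate and 0 to 1 with 1 library left out. XBP1 had -0.85 with upper-quartile scaling (adjusted p = 0.0546) and -0.88 to -0.80 with 1 library left out (adjusted p from 0.0327 to 0.475). XBP1 passed in DESeq2 (-0.84, adjusted p = 1.58e-12) and limma-voom (-0.84, adjusted p = 0.0348). In edgeR it also passed with the component as a covariate (-0.82, adjusted p = 2.55e-09) and without both end libraries (-0.76, adjusted p = 1.02e-07). Without both end libraries, which were picked from these same data, 4.87% of all tested genes passed. Of the partner lists, 2 of 12 other subunits and bound factors, 1 of 9 NFE2L1 genes and 1 of 6 ubiquitin genes and activating enzymes passed. For p97 and shuttles it was 0 of 12, and for the ligases 0 of 6. UCHL5 passed as lower (-0.32, against 0.01 in the fit with 6 libraries), as did TXNL1 (-0.33), UBA6 (-0.61) and, as higher, MAFF (0.34). Same-numbered libraries had deviations that correlated at 0.60, -0.36 and 0.43, and differently numbered ones at -0.75 to 0.65. With 3 libraries a group these values cannot settle whether the numbers pair the samples. With the replicate block, 1 gene and 0 members were called and XBP1 had -0.84. No scaling turned the sign of a class median. How depth bears on the width of the member intervals was not tested, and the number of libraries, 3 a group, limits their precision.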
